A study of Mus musculus with 16 samples.

Results

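The 9 genes described here were measured across the livers of 16 mice: the guanylate-binding proteins Gbp2, Gbp3, Gbp6 and Gbp7, the immunity-related GTPases Igtp, Irgm1, Irgm2 and Iigp1, and the transcription factor Irf1. A gene was included when the gene name printed for its probe in the scanner files equalled one of these 9 symbols, and all 9 were found among the 37074 gene names of the array. All recipients were male C57BL/6 mice, conventional (Conv, that is, with their own gut microbiota and never given antibiotics), 6 weeks old at the start, kept on normal chow (NC) during the 4 weeks that followed, and 10 weeks old according to the labels. Conv + PBS (n = 6) received the vehicle, reduced PBS, Conv + LM (n = 5) received caecal microbiota from lean donors, and Conv + OM(HFD) (n = 5) received caecal microbiota from donors made obese by a high-fat diet (HFD). The labels also call the Conv + PBS mice not transplanted. According to the paper, caecal content was pooled within each group of donors, so that the recipients of a group are not replicates of a donor. Which mice shared a cage was not given in the labels, so that cage and group cannot be told apart, and the p-values below measure the spread between mice of these 3 groups.

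Interferon-gamma is a cytokine made mainly by natural killer and T cells. It binds the receptor pair Ifngr1 and Ifngr2, and the signal passes through the kinases Jak1 and Jak2 to gamma-activated sites (GAS) in DNA. Irf1 is among the first genes switched on and itself binds interferon-stimulated response elements (ISRE), where it switches on further genes, among them both GTPase families. Guanylate-binding proteins and immunity-related GTPases assemble on the vacuoles of intracellular pathogens and help to break them open. Igtp, Irgm1 and Irgm2 belong to the regulatory branch of the immunity-related GTPases, which keeps effector GTPases such as Iigp1 inactive on the cell's own membranes. In mouse liver Iigp1 is also known for a promoter that works without interferon.

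Promoter sequences are shown because both response elements can be read in them. RefSeq windows of the GRCm38.p6 build covered 7 of the 9 genes, and the 250 bases before each transcription start were searched on both strands for an ISRE-type element (GAAA, any pair of bases, GAAA) and for a GAS element (TTC, any 3 bases, GAA). All 6 GTPase genes with a window (Gbp2, Gbp3, Gbp7, Igtp, Irgm1 and Irgm2) held an ISRE-type element in at least 1 of their windows, against 3.46% of 27025 genes, and the second window of Gbp3 held none. Those elements lay 24 to 64 bases before the start. A GAS element was present in a window of Gbp7, Igtp, Irgm2 and Irf1, against 8.13% of genes, and the Irf1 windows held no ISRE-type element. These matches are a description of letters and are not sites shown to be bound. The stretches below are 80 bases long, run 5′ to 3′ on the strand of the gene, and carry the ISRE-type element (for Irf1, the GAS element) in capitals.
Gbp2 (chr3:142620569-142620648, plus strand): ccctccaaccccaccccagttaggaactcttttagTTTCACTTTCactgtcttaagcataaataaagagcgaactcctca
Gbp3 (chr3:142559964-142560043, plus strand): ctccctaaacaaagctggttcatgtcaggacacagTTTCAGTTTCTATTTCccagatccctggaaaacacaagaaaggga
Gbp7 (chr3:142530248-142530327, plus strand): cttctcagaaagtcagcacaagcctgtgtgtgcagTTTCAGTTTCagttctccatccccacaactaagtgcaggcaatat
Igtp (chr11:58199476-58199555, plus strand): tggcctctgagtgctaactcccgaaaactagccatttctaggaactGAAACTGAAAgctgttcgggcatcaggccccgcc
Irgm2 (chr11:58214878-58214957, plus strand): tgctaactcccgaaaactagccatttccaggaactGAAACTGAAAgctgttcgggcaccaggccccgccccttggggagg
Irgm1 (chr11:48871421-48871500, minus strand): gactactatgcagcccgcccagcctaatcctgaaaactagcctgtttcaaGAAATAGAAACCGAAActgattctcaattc
Irf1 (chr11:53769888-53769967, plus strand): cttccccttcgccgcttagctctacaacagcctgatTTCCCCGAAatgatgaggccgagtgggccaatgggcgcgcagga
The ISRE-type elements of Igtp and Irgm2 have the same 10 letters, and those of Irgm1 and Gbp3 are pairs that overlap.

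Gbp2, Gbp3 and Gbp7 lie on chromosome 3, between positions 142530336 and 142638008 of GRCm38.p6, and Gbp6 lies on chromosome 5. Igtp (58199556 to 58207592) and Irgm2 (58214977 to 58222783) are neighbours on chromosome 11, which also carries Irgm1 and Irf1, and Iigp1 lies on chromosome 18. The array carried 14 probes for the 9 genes, placed by the files on the mm9 build: 4 for Irgm1, 2 each for Iigp1 and Irf1, and 1 for each of the others. Sequences within both GTPase families are alike, so that a probe may also have bound transcripts of a close relative, and this was not tested.

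All 9 genes were measured in every liver: the probe used for each gene was well above background on all 16 arrays. Values are given as scaled log2 intensity, the log2 of a probe's processed intensity minus the 75th percentile of its array, so that 1 unit is a doubling and 0 is the level of that percentile. Probes differ in brightness for the same amount of RNA, so that the values of different genes are not compared. Igtp intensity ranged from 1270 to 12241 over the 16 arrays, Irgm2 from 1159 to 9892, Irgm1 from 809 to 2304, Iigp1 from 12815 to 26653 and Irf1 from 1013 to 3380. Of the guanylate-binding proteins, Gbp2 ranged from 60.9 to 305, Gbp3 from 106 to 534, Gbp6 from 30.2 to 219 and Gbp7 from 43.1 to 126. The highest intensity of each gene came from the same liver, that of Conv + PBS mouse 1. Liver is a mixture of cells, and a change in the number of cells of a type and a change in RNA per cell cannot be told apart in these data.

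Igtp showed the pattern that the others followed in part. In Conv + PBS the lowest mouse had 2.95, the median was 3.66 and the highest, mouse 1, had 6.05. Conv + LM mice 13 to 17 had 3.72, 3.84, 3.92, 3.48 and 3.89, and Conv + OM(HFD) mice 25, 26, 28, 29 and 30 had 3.81, 3.98, 3.45, 3.48 and 3.15. Both recipient groups therefore lay within the range of Conv + PBS, and mouse 1 stood 2.06 above the next highest of the 16 mice.

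Irgm2, the neighbour of Igtp, ran from 2.82 through a median of 3.33 to 5.74 in Conv + PBS. Its values were 3.70, 3.49, 3.54, 3.19 and 3.28 in Conv + LM and 3.79, 3.45, 3.25, 3.32 and 3.04 in Conv + OM(HFD). Mouse 1 was again alone at the top, by 1.95.

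Irf1 had a lowest value of 2.62, a median of 2.94 and a highest value of 4.19 in Conv + PBS, with mouse 1 highest by 0.84. Conv + LM had 3.23, 3.35, 2.75, 2.68 and 2.73, and Conv + OM(HFD) had 3.24, 2.63, 3.03, 3.07 and 2.77. The ranges of the 3 groups overlapped, and Conv + LM mouse 14 was the second highest mouse.

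Among the guanylate-binding proteins, Gbp2 ran from -1.36 through -0.70 to 0.72 in Conv + PBS. It measured -1.05, -0.44, -0.47, -1.47 and -0.59 in Conv + LM and -0.46, -1.43, -0.49, -0.94 and -0.81 in Conv + OM(HFD). Gbp3 ran from -0.63 through 0.20 to 1.53 in Conv + PBS, from -0.53 to 0.35 in Conv + LM and from -0.38 to 0.41 in Conv + OM(HFD). Each recipient group had 1 liver with Gbp2 at least as low as the lowest Conv + PBS liver, and Gbp3 was lowest in Conv + PBS mouse 6.

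Gbp6 ran from -2.45 to 0.24 in Conv + PBS, from -2.36 to -0.76 in Conv + LM and from -2.11 to -1.07 in Conv + OM(HFD). Gbp7 ran from -1.93 to -0.56, from -1.50 to -0.88 and from -1.64 to -1.13 in the same order. Their highest liver was mouse 1 and their lowest was Conv + PBS mouse 6, so that one group held both ends of the range.

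Irgm1 varied less, from 2.30 to 3.64 in Conv + PBS, from 2.77 to 3.08 in Conv + LM and from 2.58 to 3.07 in Conv + OM(HFD). By the probe used, Iigp1 ran from 6.28 to 7.17 in Conv + PBS, from 6.19 to 6.75 in Conv + LM and from 6.50 to 6.64 in Conv + OM(HFD). The standard deviation within groups, pooled over the 3 groups, ran from 0.22 for Iigp1 (0.69 for its second probe) to 0.70 for Igtp, against a median of 0.24 over all genes tested. Without mouse 1 it ran from 0.18 for Iigp1 (0.27 for its second probe) to 0.50 for Gbp6, against a median of 0.23, and that of Igtp was 0.30.

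**Figure D1:**
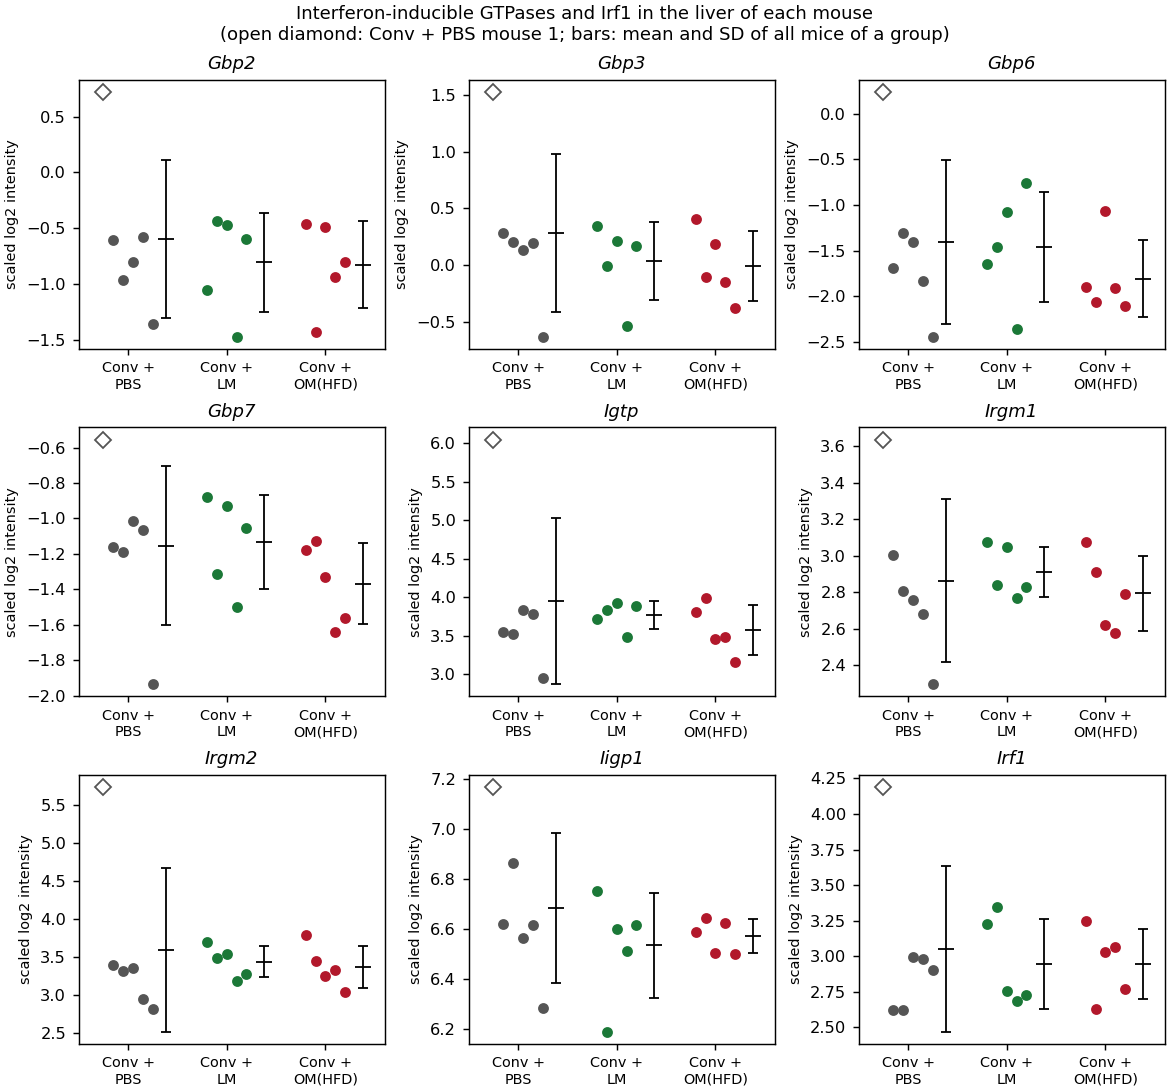
Scaled log2 intensity (y axis) of the 9 genes in the 3 groups (x axis), 1 panel per gene; each point is 1 mouse, the open diamond is Conv + PBS mouse 1, and the bars give mean and SD over all mice of the group. Mouse 1 is the highest point of every panel, and the other 15 mice of the 3 groups overlap.

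The first question was whether the transferred microbiota changed these genes. None of the 9 differed between Conv + OM(HFD) and Conv + PBS at an unadjusted p below 0.05 in limma's moderated test, against 3.25% of the 20403 genes tested (663 genes). All 9 means were lower in Conv + OM(HFD), by log2 fold changes from -0.40 for Gbp6 to -0.07 for Irgm1, with a median of -0.22 against 0.00 for all genes. Igtp averaged 3.57 ± 0.33 (SD, n = 5) after obese microbiota against 3.95 ± 1.08 (SD, n = 6) after vehicle, a difference of -0.37 with a 95% interval from -1.21 to 0.46 (exact two-sided permutation p = 0.671). Gbp6, the gene with the largest difference, averaged -1.81 ± 0.42 (SD, n = 5) and -1.41 ± 0.90 (SD, n = 6), with an interval from -1.23 to 0.43 (exact two-sided permutation p = 0.446). Gbp7 had the smallest exact p of the 9 in this comparison, 0.370, where 6 mice against 5 allow no p below 0.00216.

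The lower means in Conv + OM(HFD) depended on 1 liver. Without Conv + PBS mouse 1, 5 of the 9 genes were higher and 4 lower in Conv + OM(HFD), with log2 fold changes from -0.10 for Gbp7 to 0.21 for Irgm2 and a median of 0.04. Igtp then differed by 0.05, with an interval from -0.33 to 0.43, and Irgm2 by 0.21, with an interval from -0.12 to 0.54. No gene of the 9 reached an unadjusted p below 0.05 without mouse 1, against 3.83% of all genes. In the other direction, without Conv + PBS mouse 6, the lowest liver for Gbp7, the Gbp7 difference was -0.37 with an unadjusted limma p of 0.0298 and an adjusted limma p of 0.999, where 4.19% of all genes had an unadjusted p below 0.05.

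Conv + LM gave the same outcome against Conv + PBS: 0 of the 9 genes had an unadjusted limma p below 0.05, against 3.88% of all genes. Log2 fold changes ran from -0.25 for Gbp3 to 0.05 for Irgm1, with 7 lower and 2 higher. Without mouse 1, 8 of the 9 were higher in Conv + LM, with a median of 0.14 and a range from -0.05 for Iigp1 to 0.28 for Gbp6, and again none reached an unadjusted p below 0.05, against 4.27% of all genes. Irgm2 came closest, at 3.44 ± 0.21 (SD, n = 5) in Conv + LM against 3.17 ± 0.26 (SD, n = 5) in the other vehicle mice. Its difference of 0.27 had an interval from -0.06 to 0.60, with an exact two-sided permutation p of 0.119 and an unadjusted limma p of 0.0977.

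Both recipient groups were also compared with each other, a comparison that does not use Conv + PBS means. None of the 9 had an unadjusted limma p below 0.05, against 2.67% of all genes. Conv + OM(HFD) was lower for 7 genes and higher for 2, from -0.35 for Gbp6 to 0.04 for Iigp1. Gbp7 had the smallest exact p, 0.175, with means of -1.37 ± 0.23 (SD, n = 5) after obese and -1.14 ± 0.27 (SD, n = 5) after lean microbiota, where 5 mice against 5 allow no p below 0.00794. Irf1 averaged 2.95 in both groups, and its difference had an interval from -0.54 to 0.54.

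At an adjusted p below 0.05, limma called 0 of the 9 genes and 0 of all genes (0%) in each of the 3 comparisons. What could be detected differed by gene. For Conv + OM(HFD) against Conv + PBS without mouse 1, the interval was narrowest for Iigp1, from -0.26 to 0.23, and widest for Gbp6, from -0.70 to 0.56.

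**Figure D2:**
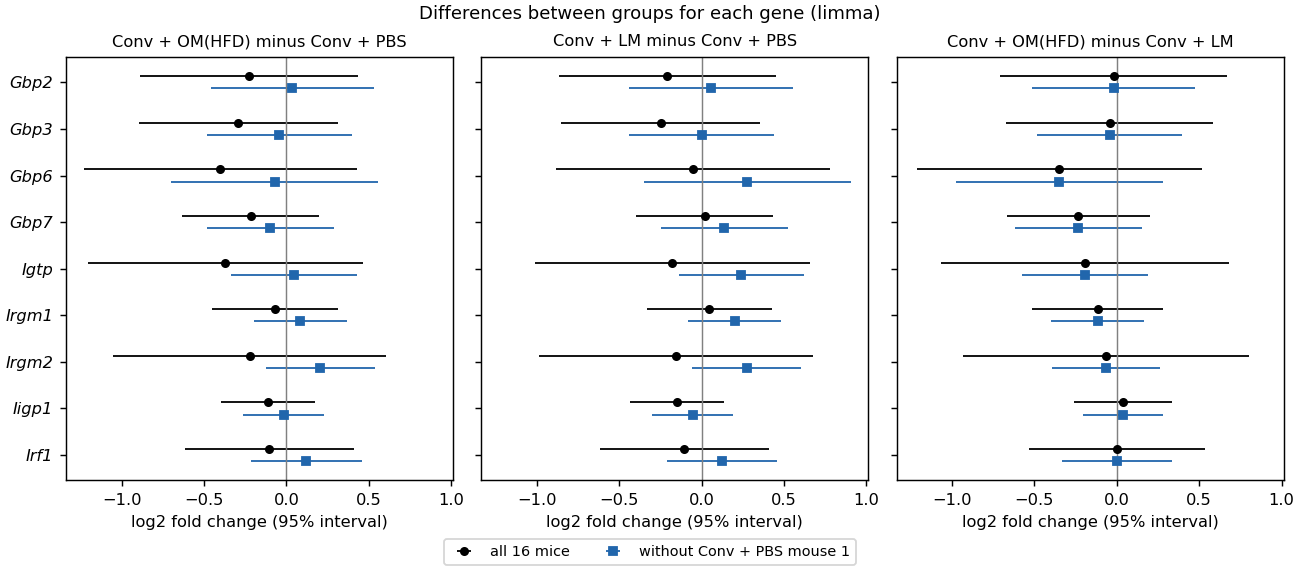
Log2 fold change (x axis) with its 95% interval for each of the 9 genes (y axis) in the 3 comparisons, with all 16 mice (circles) and without Conv + PBS mouse 1 (squares). Every interval holds zero, and in the comparisons with Conv + PBS the squares lie to the right of the circles.

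Arrays were run on 2 slides of 8, each holding mice of every group. With the slide as a block, the 9 differences between Conv + OM(HFD) and Conv + PBS ran from -0.39 to -0.07 and those between Conv + LM and Conv + PBS from -0.24 to 0.05, with no unadjusted limma p below 0.275 in any of the 3 comparisons. Mouse 1 was on slide 2. On that slide the Conv + OM(HFD) means of all 9 genes lay below the vehicle means, by differences down to -0.78, and without mouse 1 only 3 did. On slide 1, which does not hold mouse 1, 6 lay below and 3 above. For Conv + LM, 6 of the 9 means lay above the vehicle means on slide 1, 1 of 9 on slide 2, and 8 of 9 on slide 2 without mouse 1.

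The same comparisons were made for other GTPases of both families. Of 16 further genes on the list, 12 were tested: Gbp2b, Gbp4, Gbp5, Gbp8, Gbp9, Gbp10, Gbp11, Tgtp2, Ifi47, Gm12250, Gm4951 and Irgq. None had an unadjusted p below 0.05 in any of the 3 comparisons, with or without mouse 1, where 2.67% to 4.27% of all genes did, and nothing is read from a count of 0 among 12. Their median log2 fold change for Conv + OM(HFD) against Conv + PBS was -0.11, with 9 lower and 3 higher, and it was 0.10 without mouse 1, with 4 lower and 8 higher.

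The genes of the pathway around them were tested in the same way. Of 14 signalling genes tested, Jak1, the kinase bound to Ifngr1, passed when both recipient groups were compared (2.67% of all genes did), with a log2 fold change of -0.22 for obese against lean microbiota (limma, unadjusted p = 0.0420, adjusted p = 0.999). None passed in the other comparisons with all 16 mice, and Ifngr1 did without mouse 1, at 0.31 for Conv + OM(HFD) against Conv + PBS (limma, unadjusted p = 0.0391, adjusted p = 1), where 3.83% of all genes passed. Of 23 further interferon-gamma targets, Wars, a tRNA synthetase gene, passed between the recipient groups, at -0.28 (limma, unadjusted p = 0.0316, adjusted p = 0.999), and none passed in the others. None of 20 type I interferon targets passed in any comparison, with or without mouse 1. For Ifng itself, no array gave a signal well above background.

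Among the cell markers, 2 of 9 T and NK cell markers passed for Conv + OM(HFD) against Conv + PBS, the T cell receptor subunit Cd3g at -0.46 (limma, unadjusted p = 0.0111) and the NK cell receptor Klrb1c at -0.53 (limma, unadjusted p = 0.0459), against 3.25% of all genes. The Klrb1c probe was well above background on 9 arrays. Of 6 endothelial markers, Clec4g passed in the same comparison at -0.48 (limma, unadjusted p = 0.0159), and Cdh5 for Conv + LM against Conv + PBS at -0.31 (limma, unadjusted p = 0.0311), where 3.88% of all genes passed. Without mouse 1, Cd3g was at -0.36 (limma, unadjusted p = 0.0267) and Klrb1c did not pass, while Clec4g at -0.50 and Kdr at -0.30 were the endothelial markers that passed, against 3.83% of all genes. No adjusted p was below 0.99, and the part of these cells in the values of the 9 genes was not tested. No Kupffer cell, neutrophil or hepatocyte marker passed in any comparison.

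Between single mice the genes did differ. Conv + PBS mouse 1, singled out after its values were seen, was the highest of the 16 mice for 9 of the 9 genes, against 8.27% of 20327 genes with a value in every mouse. It exceeded every other mouse by at least 1 for 5 of the 9 (Gbp2, Gbp3, Gbp6, Igtp and Irgm2), against 0.63% of those genes. By the probe used for each gene and relative to the median of the other 15 mice, Irgm2 was 5.33-fold higher, Igtp 5.03-fold, Gbp6 3.83-fold, Gbp2 2.88-fold, Gbp3 2.56-fold, Irf1 2.44-fold, Irgm1 1.78-fold, Gbp7 1.54-fold and Iigp1 1.48-fold. The value for Iigp1 depended on the probe: its second probe was 5.22-fold above the median of the other mice. Of the regulatory branch, Igtp and Irgm2 were raised more than Irgm1, whose 2 further probes gave 1.94-fold and 1.99-fold.

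Further GTPases were raised in mouse 1 too. Tgtp2, a T-cell-specific GTPase of the effector branch, was 7.41-fold above the median of the other mice and 2.44 on the log2 scale above the next highest. Gbp4 was 4.76-fold, Gbp8 4.29-fold, Gm12250 3.39-fold and Ifi47 2.15-fold above that median, and 7 of the 12 were highest in mouse 1. Gbp2b was 22.0-fold above it, but Conv + LM mouse 15 was higher still, by 0.52. The Gbp2b probe was well above background on 12 arrays. Its median in the other mice was -3.60, so that its fold rests on a dim level. Gbp5 (1.01-fold), Gm4951 (1.12-fold), Gbp10 (1.33-fold) and Irgq (0.859-fold) were within 0.41 of the median on the log2 scale.

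In the signalling list of 14 genes, 8 were highest in mouse 1. The feedback inhibitor Socs1 was 2.34-fold above the median of the other mice, the transcription factor Irf8 1.96-fold and the receptor chain Ifngr1 1.93-fold. Jak1 was 0.847-fold and Irf2 0.847-fold of the median. Of 23 interferon-gamma targets, 14 were highest in mouse 1, among them the immune checkpoint ligand Cd274 at 6.01-fold, the class II transactivator Ciita at 4.12-fold, the peptide transporter Tap1 at 2.83-fold and the transcription factor Batf2 at 2.78-fold. The Cd274 probe was well above background on 11 arrays. Its median in the other mice was -3.40, so that its fold rests on a dim level. Of 20 type I interferon targets, 7 were highest in mouse 1 and 2 were at least 1 above the median of the other mice on the log2 scale, Zbp1 and Rtp4. Isg15 (0.924-fold), Rsad2 (0.958-fold) and Ifih1 (0.980-fold) were at or below that median.

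Markers of immune cells moved with the GTPases in this liver. All 7 Kupffer cell markers, those of the resident macrophages of the liver, were highest in mouse 1, by 2.21 above the median of the other mice as the median of the list, with Marco 12.5-fold and Clec4f, the least raised, 2.84-fold above it. Summed over the 7 genes, their log2 level was 7.96 in mouse 1, 5.48 to 5.96 in the other Conv + PBS mice, 5.18 to 5.78 in Conv + LM and 5.38 to 6.81 in Conv + OM(HFD). Of the 4 neutrophil markers tested, S100a9 and Camp were well above background on all 16 arrays and were raised by 5.29 and 3.32 on the log2 scale, while Ngp was well above background on 5 arrays, too few for a level in the other mice. The summed neutrophil level was 4.94 in mouse 1 against -0.41 to 0.27 in the other Conv + PBS mice. Of 9 T and NK cell markers, 8 were above the median of the other mice, with Nkg7 at 2.71-fold and Cd3d at 2.18-fold, Cd3e at 1.11-fold and Cd4 at 0.822-fold, and 3 of the 8 markers with a value in every mouse were highest in mouse 1. On the log2 scale 4 of the 9 were raised by at least 1. The summed level of the list was nearly all from the Cd4 probe and is not used here. The 5 hepatocyte markers were lower by 0.10 to 0.30. The part of these cells in the GTPase values of mouse 1 was not tested.

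Conv + OM(HFD) mouse 25, also singled out after its values were seen, had a summed neutrophil marker level of 4.85, close to the 4.94 of mouse 1. Its Kupffer cell markers were above the median of the other mice by 0.72 to 1.73, with a median of 1.03, less than the 2.21 of mouse 1. In mouse 25 the 9 genes described here lay between 0.25 below and 0.46 above the median of the other mice, with a median of 0.24, and none was the highest of the 16 mice. Its 20 type I interferon targets were all above that median, by a median of 0.70. At least 1 above the median were 6 of the 9 genes in mouse 1, against 3.18% of all genes, and 0 of the 9 in mouse 25, against 3.27%. Since the 2 livers differed in their Kupffer cell markers too, these values do not separate the cells from the GTPases.

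**Figure D3:**
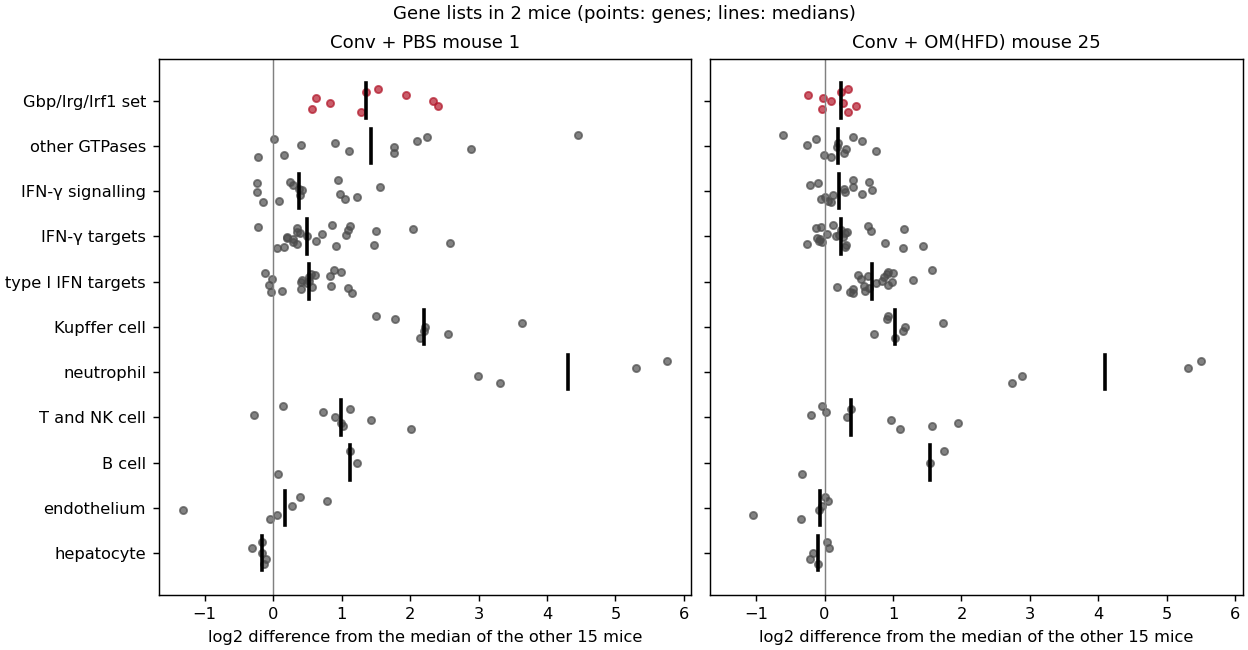
Log2 difference of each gene from the median of the other 15 mice (x axis) by gene list (y axis) in Conv + PBS mouse 1 (left) and Conv + OM(HFD) mouse 25 (right); points are genes and vertical lines are list medians. The 9 genes (top row) lie from 0.57 to 2.41 in mouse 1 and from -0.25 to 0.46 in mouse 25. The neutrophil points and line include Ngp, whose probe was well above background on 5 of 16 arrays.

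At the low end stood Conv + PBS mouse 6, on the same slide as mouse 1. All 9 genes were below the median of the other 15 mice, against 48.2% of all genes, and 6 of the 9 were the lowest of the 16 mice, against 8.13%. Igtp was lower by 0.83, Gbp3 by 0.82, Gbp6 by 0.80, Gbp7 by 0.77 and Gbp2 by 0.76, and Irf1 by 0.08. All 20 type I interferon targets were below the median in this liver as well, by a median of 0.78, and 18 of the 23 interferon-gamma targets were. Conv + LM mouse 16 also had all 9 genes below the median, against 46% of all genes, by 0.06 for Irgm1 to 0.87 for Gbp2. So did Conv + OM(HFD) mouse 30, against 42.8% of all genes, by 0.04 for Irgm1 to 0.63 for Igtp, so that each group held 1 such liver.

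The next question was how far the 9 genes moved together from mouse to mouse. To leave out differences between groups, each value was taken as its deviation from the mean of its group, and p-values came from 100000 two-sided permutations within groups. Over the 36 pairs and 16 mice, the median Pearson r was 0.76, from 0.38 for Iigp1 with Irf1 to 0.95 for Igtp with Irgm2, and 30 of the 36 had an unadjusted permutation p below 0.05 (26 after Benjamini-Hochberg adjustment over the 36). The median Spearman rho was 0.55, and 24 of the 36 had a permutation p below 0.05 (12 after adjustment). Leaving out the 2 mice farthest from the median in each pair, for most pairs mice 1 and 6 of Conv + PBS, the median r was 0.33, with 0.64 for Igtp with Irgm2 and 0.69 for Irgm1 with Irgm2. Since mouse 1 was highest for every gene, the same was computed without it.

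Without mouse 1 the median r was 0.44, and 32 of the 36 pairs were positive. A permutation p below 0.05 was found for 14 pairs (11 after adjustment), and for 9 by Spearman rho (3 after adjustment), whose median was 0.37. All 14 were pairs of GTPases. Gbp3 with Gbp7 had r = 0.86 (permutation p = 0.00177, adjusted 0.0159, n = 15) and rho = 0.60 (permutation p = 0.0276, adjusted 0.124). Gbp7 with Igtp had r = 0.84 (permutation p = 0.00115, adjusted 0.0159, n = 15) and rho = 0.80 (permutation p = 0.00132, adjusted 0.0238). Irgm1 with Irgm2 had r = 0.81 (permutation p = 0.00079, adjusted 0.0159, n = 15) and rho = 0.81 (permutation p = 0.00096, adjusted 0.0238). Without the 2 further mice farthest from the median, these 3 pairs had r = 0.67, 0.72 and 0.83, and the median over all pairs was 0.23. Over the 28 GTPase pairs the median r was 0.77 with mouse 1 and 0.59 without it, and over all pairs it was 0.32 without mice 1 and 6 together.

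The correlations of Irf1 with the GTPases depended on mouse 1. Its 8 correlations with them had a median r of 0.65 over 16 mice, the highest with Irgm2 (r = 0.82, permutation p = 0.0274, adjusted 0.0395, n = 16, with rho = 0.51, permutation p = 0.0464, adjusted 0.0709) and Igtp (r = 0.76, permutation p = 0.0651, adjusted 0.0756, n = 16, with rho = 0.44, permutation p = 0.0893, adjusted 0.123). Without mouse 1 their median was 0.04, from -0.36 for Iigp1 to 0.37 for Gbp2, and none had a permutation p below 0.05. A limma fit of every gene on the Irf1 level with the 3 groups as terms called 145 genes with a positive slope at an adjusted p below 0.05, 0.711% of 20402. Of the 8 GTPases, 1 was among them, Irgm2, with a slope of 1.35 ± 0.25 (SE) and a limma p of 0.0356 after adjustment, and Igtp had a slope of 1.26 ± 0.29 (SE) and a limma p of 0.0541 after adjustment. At an unadjusted p below 0.05, 6 of the 8 had a positive slope (Gbp2, Gbp3, Gbp6, Igtp, Irgm1 and Irgm2), against 5.67% of all genes, while Gbp7 and Iigp1 did not. Of the 12 further GTPases the fit called 2, Tgtp2 (slope 1.63) and Gbp4 (slope 1.33), and of the 7 Kupffer cell markers 5, namely Cd5l (slope 1.33), Csf1r (1.18), Clec4f (0.97), Vsig4 (1.15) and Timd4 (1.37). Kupffer cell markers thus moved with Irf1 over the 16 mice as well, and their part in the GTPase slopes was not tested. Without mouse 1 the fit called no gene (0%), with 492 genes of positive slope at an unadjusted p below 0.05 (2.41%), none of them among the 8 GTPases, and the slopes were 0.27 ± 0.28 (SE) for Irgm2 and 0.09 ± 0.33 (SE) for Igtp.

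Slides also differed. Within slide 1, which held neither mouse 1 nor mouse 6, the median r over the 36 pairs was 0.34 (8 mice, deviations from the group means on that slide). Within slide 2 it was 0.90 with mouse 1 and 0.77 without it (7 mice), and there the 28 GTPase pairs had a median of 0.87. The 8 Irf1 pairs had a median of 0.35 on slide 1 and of 0.11 on slide 2 without mouse 1.

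**Figure D4:**
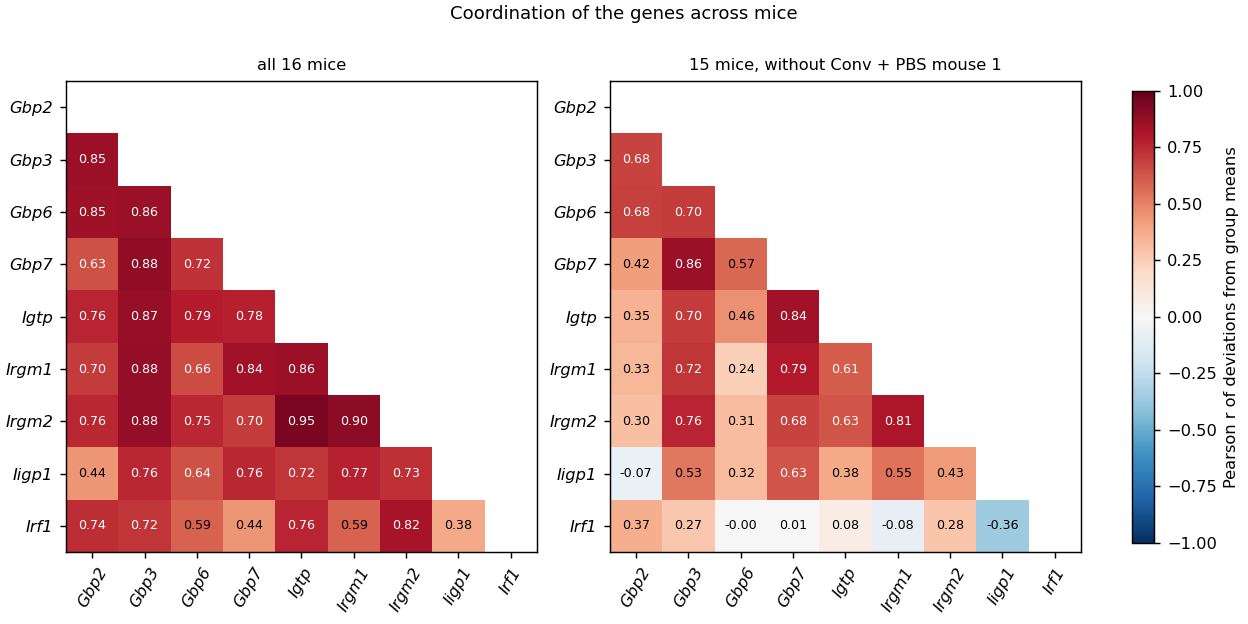
Pearson r between deviations from the group means for the 36 pairs of the 9 genes, over 16 mice (left) and over the 15 mice without Conv + PBS mouse 1 (right); rows and columns are genes and the colour scale runs from -1 to 1. The bottom row, Irf1, falls from between 0.38 and 0.82 to between -0.36 and 0.37, and the block of Gbp3, Gbp7, Igtp, Irgm1 and Irgm2 stays between 0.61 and 0.86.

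Each gene was also set against the mean of the other 8. Gbp3 had the highest r of 20319 genes with that mean, 0.97, both over 16 mice and without mouse 1. Igtp and Irgm2 ranked 4 over 16 mice (r = 0.93 each) and 250 and 99 without mouse 1. Gbp7 went from rank 165 to rank 6, with r = 0.88 without mouse 1, and Irf1 from rank 421 to rank 7555, with r = 0.09. These ranks describe 16 or 15 mice and carry no test.

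Among genes outside the 9, those named here as most like their mean over 16 mice (the mean of their standardised deviations) were Batf2 (r = 0.95), Psmb8, a subunit of the immunoproteasome (0.94), Ttc27 (0.93), Tgtp2 (0.93), Tmem229b (0.92), Il18bp, the secreted inhibitor of interleukin 18 (0.92), Prex1 (0.92), Pigz (0.91) and AI853106 (0.91). The Pigz probe was well above background on only 11 arrays and that of AI853106 on only 9. Without mouse 1 the list changed to Psmb9, another immunoproteasome subunit (0.94), Ifit3b (0.91), Ifit3 (0.89), Ifi47 (0.88), Ifih1, a sensor of double-stranded RNA (0.87), Rbck1 (0.86), Zc3hav1 (0.86), Sri (0.86) and Trim34a (0.86). None of the genes named was on both lists.

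Gene lists shifted in the same way. Over 16 mice, 7 of 7 Kupffer cell markers, 17 of 23 interferon-gamma targets, 14 of 20 type I interferon targets and 9 of 12 other GTPases had r above 0.5 with the mean of the 9, against 7.67% of 20318 genes. Without mouse 1 these were 1 of 7, 13 of 23, 19 of 20 and 3 of 12, against 8.43%. Type I interferon targets had a median r of 0.58 with mouse 1 and 0.72 without it, and Kupffer cell markers 0.79 and 0.38. Hepatocyte markers had a median r of -0.41 and -0.40.

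**Figure D5:**
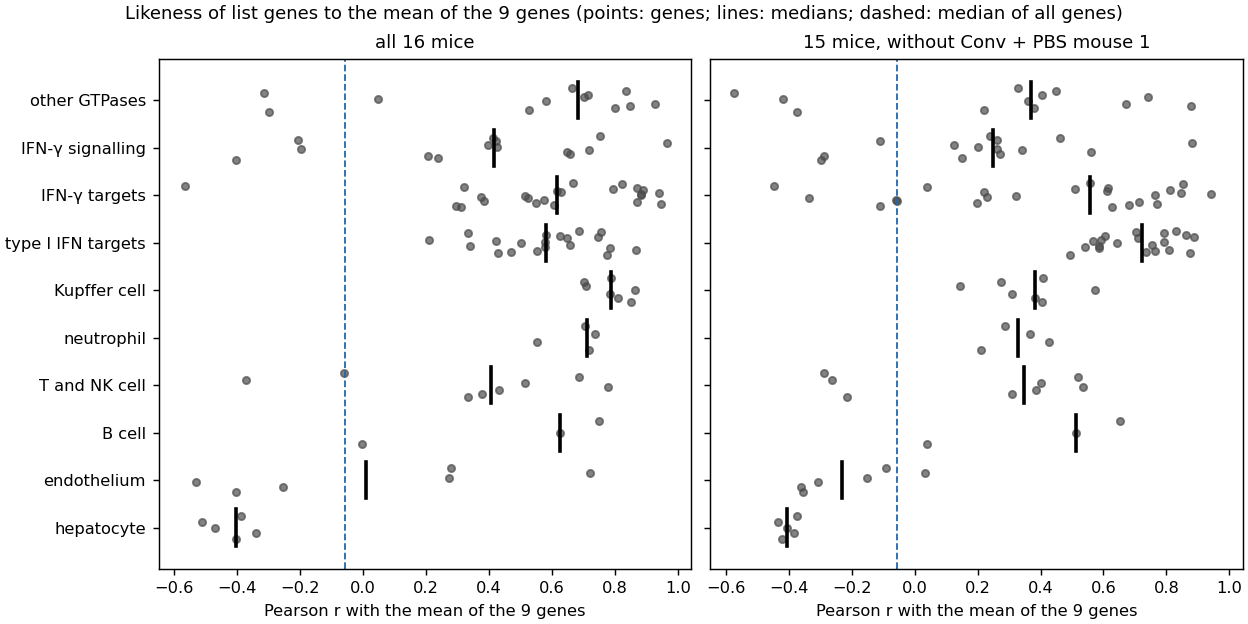
Pearson r of single genes with the mean of the 9 genes (x axis) by gene list (y axis), over 16 mice (left) and without Conv + PBS mouse 1 (right); points are genes, vertical lines are list medians and the dashed line is the median of all genes. The type I interferon list moves right, from a median of 0.58 to 0.72, and the Kupffer cell list moves left, from 0.79 to 0.38.

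Probes of the same gene differed for Iigp1. The brighter probe, at chr18:60552153-60552212 of mm9, gave the values above, with mouse 1 at 7.17 and the other mice from 6.19 to 6.86. The other probe, at chr18:60538211-60538270, was also well above background on all 16 arrays and read 0.45 in mouse 1 and from -2.32 to -1.48 in the other 15 mice. Their deviations had r = 0.66 over 16 mice and 0.17 without mouse 1. For Irgm1 the 2 further probes above background on all arrays had r = 0.91 and 0.92 with the probe used, and 0.80 each without mouse 1. The second Irf1 probe was well above background on 12 arrays and had r = 0.53 with the first, and its highest liver was not mouse 1. With all 16 mice, none of the 4 further probes that were kept had an unadjusted limma p below 0.05 in any comparison. The fourth Irgm1 probe was well above background on 1 array and was not tested.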

How the data were processed

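Liver RNA of 16 mice was hybridised to 1-colour Agilent arrays. Per the file headers the scanner output was made with Agilent Feature Extraction 10.10.1.1, and the deposited processed intensity (background subtracted by that program) was used. The authors' deposited log2 values, which follow the median spot intensity after quantile normalization and for which the labels name limma, served as an alternative. Array number and signal over background limit the precision. Outlier spots (1785) were left out, and the mean log2 value over the spots of a probe was lowered by the 75th percentile of its array. A probe was kept if well above background on at least 5 arrays, and the brightest kept probe stood for its gene (20403 genes, 6819 with several probes). All columns used matched a sample (0 did not). limma 3.58.1 in R 4.3.3 fitted the 3 groups, with Benjamini-Hochberg adjustment over all genes. In simulated data for Conv + OM(HFD) against Conv + PBS (20403 genes, 200 changed by 1 on the log2 scale) it called 156 of these and 10 others. The simulated noise was drawn for each gene on its own, and the 200 were picked from all genes. The simulation thus does not show what could be found for the 9 genes, which moved together. Exact permutation tests and correlations used numpy 2.4.6 in Python 3.11.15. Named genes were the 9 genes, the further GTPases, the 10 genes most like the mean of the 9 (1 of them is not reported here), and in each other list up to 3 genes at an unadjusted p below 0.05. Others named in single mice were chosen after their values were seen. Mouse numbers differ between groups and pair no samples. Members and lists were chosen with earlier results of these data known. The alternatives were another background correction or normalization, the authors' values, other filters and probe rules, the slide as a block, array weights, the methods' t-test, and leaving out each mouse. Leaving out Conv + PBS mouse 1 from correlations and lists, alone or with mouse 6, was added after seeing the data.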

Additional observations from a re-analysis of the deposited data

Results flagged for a closer look

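Within groups, 27 sets of values (9 genes in 3 groups) were checked for a liver far from the rest of its group by Dixon's ratio, the gap to the nearest mouse divided by the range of the group. Chance alone marks about 1 set in 20, and 5 were marked. The sets are not independent, since the same mice enter for all 9 genes and the genes moved together. The 5 marks are therefore not read as an excess over chance. Conv + PBS mouse 1 was far above the other 5 for Gbp2 (ratio 0.6254), Igtp (0.7125), Irgm2 (0.8024) and Irf1 (0.7636). Conv + OM(HFD) mouse 28 was above the other 4 for Gbp6 (ratio 0.7979), at -1.07 against -2.11 to -1.90.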

How the results depend on the processing

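No paired analysis was possible because the groups share no mouse numbers. Of the 9 genes, 0 had an unadjusted p below 0.05 in the main setting, and 0 to 1 when 1 mouse was left out (1 without Conv + PBS mouse 6, Gbp7, for Conv + OM(HFD) against Conv + PBS, where 4.19% of all genes passed). Settings that kept all mice turned 6 of 270 single log2 fold changes: Irf1 was 0.0138 for Conv + OM(HFD) against Conv + PBS with array weights, and against Conv + LM Gbp2 was 0.0284 with normexp and 0.0530 with array weights, Gbp3 0.0148 and 0.0098, and Irf1 -0.0194 as the mean of all probes. Leaving out 1 mouse turned 32 of 432, 11 of them without Conv + PBS mouse 1. For Conv + OM(HFD) against Conv + PBS the values ran from -0.38 to 0.0363 for Gbp2, from -0.57 to 0.0489 for Igtp, from -0.18 to 0.0849 for Irgm1, from -0.38 to 0.21 for Irgm2 and from -0.19 to 0.12 for Irf1. For Conv + LM against Conv + PBS they ran from -0.36 to 0.0562 for Gbp2, from -0.43 to 0.0016 for Gbp3, from -0.26 to 0.28 for Gbp6, from -0.14 to 0.14 for Gbp7, from -0.38 to 0.24 for Igtp, from -0.0666 to 0.20 for Irgm1, from -0.31 to 0.27 for Irgm2 and from -0.21 to 0.12 for Irf1. For Conv + OM(HFD) against Conv + LM they ran from -0.19 to 0.13 for Gbp2, from -0.19 to 0.0493 for Gbp3, from -0.17 to 0.0158 for Irgm2, from -0.0488 to 0.0923 for Iigp1 and from -0.0741 to 0.10 for Irf1. Gbp6, the gene with the largest difference in both comparisons of Conv + OM(HFD), kept its sign. It ran from -0.61 to -0.07 against Conv + PBS and from -0.57 to -0.17 against Conv + LM. The median correlation over the 36 pairs was 0.76, with 0.55 as Spearman rho, 0.44 (without Conv + PBS mouse 1) to 0.79 with 1 mouse left out, and 0.32 without mice 1 and 6 together; the cause was not tested. Under the other scalings it was 0.78 to 0.81. Dim signal limits the Gbp6 and Gbp7 values most.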
